A study of Mus musculus with 4 samples.

Results

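Gadd45a, Gadd45b, Gadd45g, Cdkn1a, Pmaip1, Bbc3, Bcl2l11, Ripk3 and Mlkl are genes of the stress, growth arrest and cell death response, and their transcripts were followed here across the cell types of the mouse retina. The 9 genes were chosen by name with earlier results of these data known, and all 9 were found among the 20094 genes measured. The study used single-cell RNA sequencing (droplet capture, 10x chemistry) of retinae from mice lacking Abca4 and Rdh8 (Abca4-/-Rdh8-/-) on a C57BL/6J background. The products of both genes, a lipid transporter and a retinol dehydrogenase, remove all-trans-retinal from photoreceptors. Bright light releases all-trans-retinal, which such mice clear slowly, and their photoreceptors are prone to light damage. The double knockout is shared by every group, the controls included, so no group is wild type.

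There were 4 groups with 1 library each. The rolipram library came from bleached mice given rolipram, an inhibitor of the cAMP-degrading enzyme PDE4, at 2 mg/kg. The BC11-38 library came from bleached mice given BC11-38, an inhibitor of the phosphodiesterase PDE11, at 2 mg/kg. The bleached vehicle library came from bleached mice given DMSO, and the unbleached vehicle library from mice given DMSO without the bleach. Each library pooled 4 retinae of 2 mice aged 6 weeks, with 15000 cells loaded. Bleached mice were dark adapted for 24 h, had their pupils dilated with 1% tropicamide and were exposed to 10000 lux for 30 min. Drug or DMSO was injected into the peritoneum 30 min before the light, and the retinae were taken 1 day after it. Dark adaptation, dilation and the time of injection are not given for the unbleached group. With 1 library per group no test of a difference was possible. The intervals given below are exact 95% intervals that cover counting error only, not variation between mice or libraries.

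GADD45 proteins are small stress sensors that bind the kinase Map3k4 and upstream partners of the p38 and JNK pathways, and that also bind cyclin-dependent kinase complexes and PCNA. Gadd45a is a classical target of the transcription factor p53, whereas Gadd45b and Gadd45g are known mainly as early-response genes of cytokine, NF-kB and stress signalling. Cdkn1a encodes p21, the p53-induced inhibitor of cyclin-dependent kinases. Pmaip1 (Noxa), Bbc3 (Puma) and Bcl2l11 (Bim) encode BH3-only proteins, which antagonise the anti-apoptotic BCL2 proteins at the mitochondrion. Ripk3 is the kinase that phosphorylates Mlkl, and phosphorylated Mlkl permeabilises the plasma membrane in necroptosis, a death route that has been studied in degenerating photoreceptors.

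The 250 bases before the annotated start are printed below for the GADD45 genes and Cdkn1a, whose transcripts differed most between the libraries (RefSeq, GRCm38.p6, 5′ to 3′ on the gene's strand). Capitals mark the CCAAT box in the GADD45 windows and the p53 site in the Cdkn1a window.
Gadd45a, chr6:67037408-67037657, minus strand: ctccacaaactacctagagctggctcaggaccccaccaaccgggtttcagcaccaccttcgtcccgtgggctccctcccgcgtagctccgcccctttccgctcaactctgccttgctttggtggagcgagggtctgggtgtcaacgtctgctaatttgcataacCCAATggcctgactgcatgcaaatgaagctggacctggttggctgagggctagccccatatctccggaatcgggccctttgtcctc
Gadd45b, chr10:80929841-80930090, plus strand: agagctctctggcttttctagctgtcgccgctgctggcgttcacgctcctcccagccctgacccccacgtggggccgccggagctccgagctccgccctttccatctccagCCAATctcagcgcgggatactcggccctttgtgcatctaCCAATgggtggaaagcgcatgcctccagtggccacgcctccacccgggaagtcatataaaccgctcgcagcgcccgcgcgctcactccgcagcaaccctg
Gadd45g, chr13:51846425-51846674, plus strand: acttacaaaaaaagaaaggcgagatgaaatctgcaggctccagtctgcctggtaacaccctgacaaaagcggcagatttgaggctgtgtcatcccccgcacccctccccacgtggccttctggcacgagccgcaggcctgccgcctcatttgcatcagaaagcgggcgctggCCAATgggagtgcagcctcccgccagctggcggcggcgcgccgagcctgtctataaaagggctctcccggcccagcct
Cdkn1a, chr17:29090729-29090978, plus strand: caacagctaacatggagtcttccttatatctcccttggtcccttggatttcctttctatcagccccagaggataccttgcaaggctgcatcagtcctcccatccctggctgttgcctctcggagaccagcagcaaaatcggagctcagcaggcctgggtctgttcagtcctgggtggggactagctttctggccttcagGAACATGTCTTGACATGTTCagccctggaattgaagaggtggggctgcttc

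A CCAAT box (CCAAT, either strand) was found in all 3 GADD45 windows, in 1 of 3 Bbc3 windows and both Bcl2l11 windows, and in 33.8% of the 32851 mouse windows of the same length. It lay 86 to 82 bases before the start in Gadd45a, 139 to 135 and 100 to 96 bases before it in Gadd45b, and 78 to 74 bases before it in Gadd45g. An AP-1 site (TGANTCA) is held by 6.75% of all windows and a CRE core (TGACGT) by 6.47%. No window of Pmaip1 was searched, and neither site was in any window of the other members. The printed Cdkn1a window holds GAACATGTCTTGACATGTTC, 51 to 32 bases before the start. It matches the p53 site, searched by name with at most 1 mismatch outside the cores, which 15 of the 32851 windows (0.0457%) hold. The window of the second annotated Cdkn1a start, chr17:29093519-29093768, has no such match. That search was added after the windows had been seen, and a search without mismatches found none of the members searched and 3 windows in all (0.00913%). A match describes letters in a window and is no evidence of binding. Counts from the ends of transcripts do not tell which start site was used.

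On GRCm38 (GENCODE M21) Gadd45a lies at chr6:67035096-67037457 (minus strand), Gadd45b at chr10:80930073-80932204 (plus), Gadd45g at chr13:51846678-51848468 (plus) and Cdkn1a at chr17:29090976-29100727 (plus). Bbc3 lies at chr7:16308393-16318205 (plus), Bcl2l11 at chr2:128126038-128162547 (plus), Ripk3 at chr14:55784995-55788865 (minus), Mlkl at chr8:111311797-111338177 (minus) and Pmaip1 on chromosome 18. Gadd45a, Cdkn1a and Mlkl each overlap an annotated gene on the opposite strand. Whether the authors' counting used strand is not given in the sources used here, so the counts of these 3 genes are uncertain to that extent.

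The 4 libraries held 5697 to 7894 cells with a median of 3443 to 4585 unique molecules (UMIs) per cell, 26543 cells and 140410160 UMIs in all. Cells were clustered without the 9 genes, and clusters were named rod-like, cone-like and so on from marker lists, written below without the suffix. Rods numbered 2293 to 2638 per library, Müller glia 596 to 1406, bipolar cells 1127 to 2228, amacrine cells 377 to 1149, cones 260 to 398 and endothelial cells 52 to 96. Xist was detected in 51.6% of cells of the rolipram library, 48.8% of the BC11-38 library, 0.176% of the bleached vehicle library and 48.1% of the unbleached vehicle library. The bleached vehicle library thus differed from the other 3 in the sex of its mice as well as in treatment, and every ratio to it carries both. A doublet caller marked 0 to 18 cells per library where 4.56 to 6.32% were expected, so most doublets remain. Each pair of libraries shared 10 to 25 cell barcodes. Libraries filled different clusters within a class. Of the Müller clusters, cluster 12 (led by Cp, Crym and Cd9) held 163 rolipram, 0 BC11-38, 976 bleached vehicle and 271 unbleached vehicle cells. Cluster 15 (led by Spc25, Apoe and Glul) held 883 rolipram, 558 BC11-38, 66 bleached vehicle and 211 unbleached vehicle cells. Most rods of the rolipram library were in cluster 4 (1405 cells), most of the BC11-38 library in clusters 5 and 4 (924 and 769 cells), and the largest number of both vehicle libraries in cluster 0 (1263 bleached and 670 unbleached cells).

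Gadd45b, the GADD45 gene with the most counts (15888 UMIs), was highest in Müller glia and rods of the bleached vehicle library among the 6 classes compared (at least 50 cells per library), and was lower in both drug libraries. Levels are given as CPM, the UMIs of the gene divided by all UMIs of the class and multiplied by 1000000. In Müller glia its level was 101 CPM with rolipram, 22.3 CPM with BC11-38, 424 CPM in the bleached vehicle library and 150 CPM in the unbleached vehicle library. In rods it was 40.6 CPM with rolipram, 5.23 CPM with BC11-38, 251 CPM in the bleached vehicle library and 69.8 CPM in the unbleached vehicle library. Both drug libraries were therefore below the unbleached library as well in these classes. Cones gave 12.5 CPM with rolipram, 12.4 CPM with BC11-38, 101 CPM in the bleached vehicle library and 18.3 CPM in the unbleached vehicle library. In all 3 classes the bleached vehicle library stood above the other libraries with no overlap of the counting intervals.

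**Figure D1:**
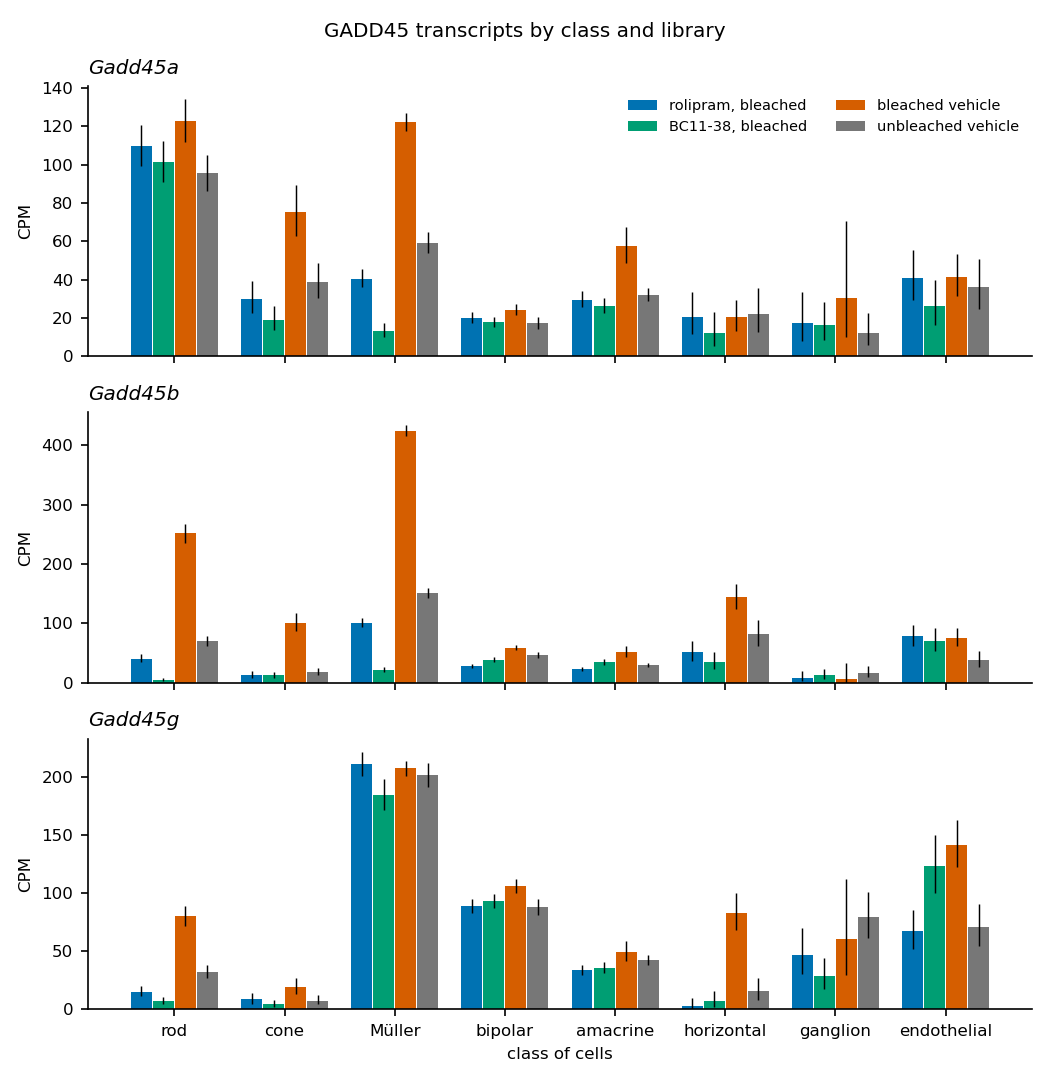
Levels of Gadd45a, Gadd45b and Gadd45g (CPM, linear axes from 0) in 8 classes of retinal cells, 1 bar per library, with exact 95% Poisson intervals for counting error. For Gadd45b the bleached vehicle bar is the highest in rods (251 CPM), cones (101 CPM) and Müller glia (424 CPM), whereas the 4 Gadd45g bars of Müller glia lie between 184 and 211 CPM.

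After the bleach Gadd45b was 2.82-fold higher in Müller glia (2.65 to 3), 3.6-fold higher in rods (3.16 to 4.12) and 5.52-fold higher in cones (3.82 to 8.18) than in the unbleached vehicle library. The ratio was smaller in bipolar cells (1.28-fold), amacrine cells (1.76-fold) and endothelial cells (1.99-fold, 1.34 to 3.02). In Y-positive cells (a Y-linked UMI, without Xist) of both libraries the ratio was 2.14-fold in Müller glia, 2.72-fold in rods and 4.33-fold in cones. All 3 stayed past 2-fold, but the Müller and rod ratios lay below the intervals given above for all cells. The part of sex in these ratios was not tested. Microglia, too few for the comparisons (14 to 38 cells in 3 libraries), held Gadd45b at 129 CPM with rolipram, 198 CPM in the bleached vehicle library and 385 CPM in the unbleached vehicle library.

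With rolipram, Gadd45b was 4.20-fold lower in Müller glia (3.89 to 4.54), 6.19-fold lower in rods (5.22 to 7.39) and 8.07-fold lower in cones (5.17 to 13.2) than in the bleached vehicle library. With BC11-38 it was 19.1-fold lower in Müller glia (15.5 to 23.7), 48.1-fold lower in rods (30.6 to 80.2) and 8.14-fold lower in cones (5.37 to 12.8). The rod value with BC11-38 rests on 19 UMIs, against 980 UMIs in the bleached vehicle library. With equal weight per cell the BC11-38 values were 15.15-fold lower in Müller glia, 39.1-fold in rods and 10.6-fold in cones. The differences were smaller in inner neurons. Bipolar cells were 2.10-fold lower with rolipram (1.82 to 2.43) and had a ratio of 0.646 with BC11-38, and amacrine cells were 2.28-fold lower with rolipram (1.80 to 2.90). In Y-positive cells the rolipram values were 2.98-fold lower in Müller glia, 5.49-fold in rods, 10.8-fold in cones and 1.62-fold in bipolar cells. Those of BC11-38 were 18.3-fold lower in Müller glia, 63.7-fold in rods and 10.5-fold in cones. In endothelial cells the level was 78.1 CPM with rolipram, 71.0 CPM with BC11-38, 76.1 CPM in the bleached vehicle library and 38.2 CPM in the unbleached vehicle library.

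Shares of cells gave the same order of the libraries in Müller glia and rods. A Gadd45b UMI was found in 15.7% of Müller glia with rolipram (13.7 to 17.9), 7.81% with BC11-38 (5.79 to 10.2), 59.9% in the bleached vehicle library (57.3 to 62.5) and 34.1% in the unbleached vehicle library (30.3 to 38.0). Müller glia differed in depth, with medians of 5571 UMIs per cell with rolipram, 6771.5 with BC11-38, 13715.5 in the bleached vehicle library and 11580 in the unbleached vehicle library. After thinning every cell to 2000 UMIs the shares were 8.62% with rolipram, 3.18% with BC11-38, 31.7% in the bleached vehicle library and 13.0% in the unbleached vehicle library. The thinning left out 86, 36, 63 and 44 shallower Müller cells in that order of libraries. In rods the shares were 4.25% with rolipram, 0.785% with BC11-38, 24.6% in the bleached vehicle library and 8.58% in the unbleached vehicle library. Thinned rods gave 6.76% with rolipram, 0.894% with BC11-38, 30.1% in the bleached vehicle library and 11.3% in the unbleached vehicle library, after 2209, 1734, 2032 and 1664 shallower rods had been left out. The summed Müller markers were at 389 CPM in bleached vehicle rods and 13312 CPM in bleached vehicle Müller glia, and Gadd45b was at 251 CPM in those rods and 424 CPM in those Müller glia. The part of free RNA in the rod values was not tested.

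Markers of other cell types were read beside these values. The summed level of the 8 astrocyte markers in Müller glia was 766 CPM with rolipram, 346 CPM with BC11-38, 1265 CPM in the bleached vehicle library and 1101 CPM in the unbleached vehicle library, the order of Gadd45b. Of the 8, 3 were higher in bleached than in unbleached Müller glia (Gfap, Aldh1l1 and Slc14a1), and Igsf1 was at 0 in every library. Gfap, which reactive Müller glia are also known to express, was at 397 CPM with rolipram, 32.7 CPM with BC11-38, 869 CPM in the bleached vehicle library and 764 CPM in the unbleached vehicle library. In rods Gfap was at 1.33 CPM with rolipram, 0 CPM with BC11-38, 25.4 CPM in the bleached vehicle library and 8.98 CPM in the unbleached vehicle library. The summed level of the Müller markers in Müller glia ran the other way, at 36755 CPM with rolipram, 47161 CPM with BC11-38, 13312 CPM in the bleached vehicle library and 24972 CPM in the unbleached vehicle library. The part of these differences and of depth in the Müller values of Gadd45b, Gadd45a and Cdkn1a was not tested.

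Within clusters the Gadd45b differences were smaller in Müller glia, and also in rod cluster 0. In Müller cluster 12 the level was 306 CPM with rolipram, 467 CPM in the bleached vehicle library and 203 CPM in the unbleached vehicle library, and no BC11-38 cell was in it. There the bleached library was 2.30-fold above the unbleached one (2.16 to 2.46), and rolipram was 1.53-fold below the bleached one. In cluster 15 the levels were 39.2 CPM with rolipram, 21 CPM with BC11-38, 26.9 CPM in the bleached vehicle library and 29.6 CPM in the unbleached vehicle library. There the ratio of bleached to unbleached was 0.909, that of rolipram to bleached 1.46 and that of BC11-38 to bleached 0.779. The libraries also filled these clusters in different numbers, and the part of this in the class-wide Gadd45b ratios of Müller glia was not tested. Rod cluster 0 held Gadd45b at 144 CPM with rolipram, 277 CPM in the bleached vehicle library and 125 CPM in the unbleached vehicle library. Over all rods the levels of these libraries were 40.6, 251 and 69.8 CPM. Rod cluster 5 held it at 14.8 CPM with rolipram, 3.97 CPM with BC11-38, 107 CPM in the bleached vehicle library and 16.5 CPM in the unbleached vehicle library, on 8 to 23 UMIs per library. No BC11-38 level is given for rod cluster 0, which held 12 BC11-38 and 1263 bleached vehicle cells. The part of the different rod clusters in the class-wide Gadd45b ratios of rods was not tested.

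**Figure D2:**
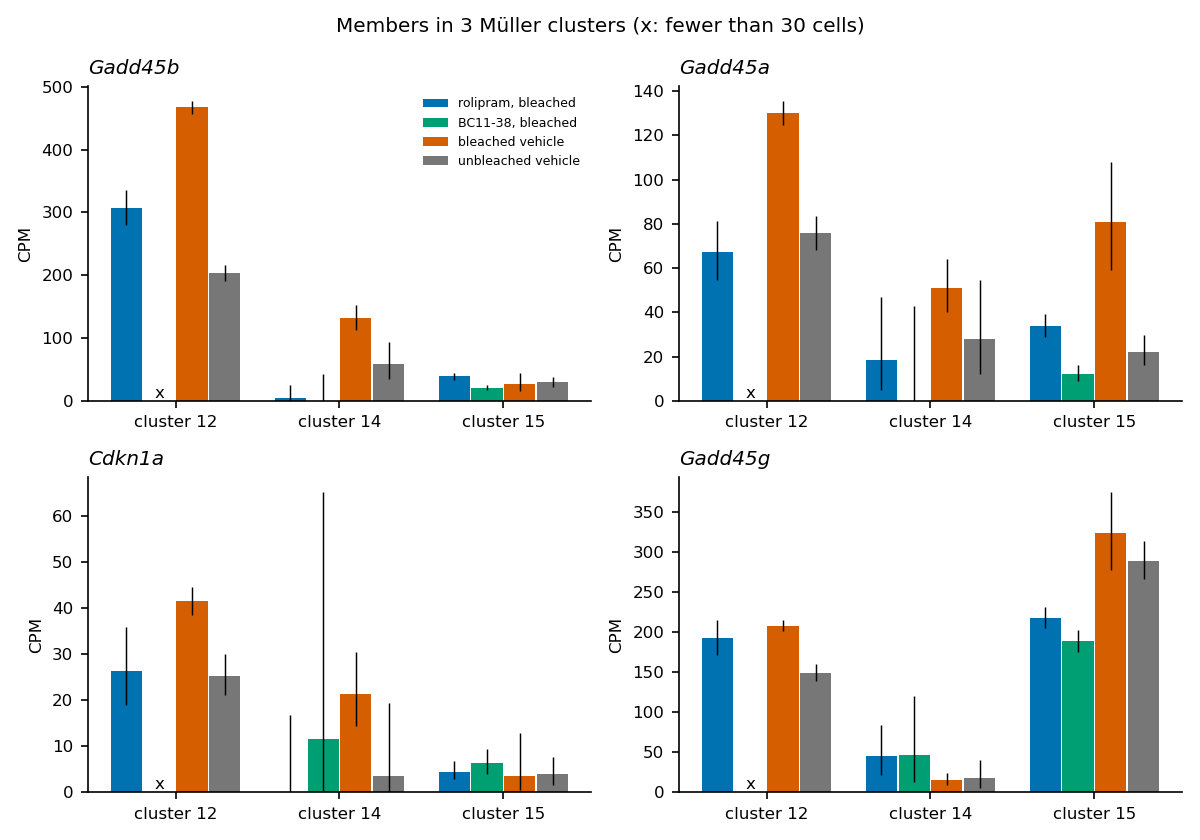
Levels (CPM of the cluster, linear axes from 0) of Gadd45b, Gadd45a, Cdkn1a and Gadd45g in Müller clusters 12, 14 and 15, 1 bar per library, with exact 95% Poisson intervals; x marks a library with fewer than 30 cells in the cluster. Gadd45b was at 467 CPM in bleached vehicle cells of cluster 12 and at 26.9 CPM in those of cluster 15.

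Gadd45a had its highest levels in rods and in bleached Müller glia, and its rod level differed little between the libraries. Rods gave 110 CPM with rolipram, 101 CPM with BC11-38, 123 CPM in the bleached vehicle library and 95.5 CPM in the unbleached vehicle library. The bleached rods were 1.29-fold above the unbleached ones (1.12 to 1.47), with ratios to the bleached rods of 0.892 for rolipram and 0.824 for BC11-38. Müller glia gave 40.6 CPM with rolipram, 13.3 CPM with BC11-38, 122 CPM in the bleached vehicle library and 59.0 CPM in the unbleached vehicle library. The bleached Müller glia were thus 2.07-fold above the unbleached ones (1.87 to 2.29), or 1.93-fold in Y-positive cells. Relative to the bleached vehicle library Gadd45a was 3.01-fold lower with rolipram (2.67 to 3.41) and 9.19-fold lower with BC11-38 (7.03 to 12.2) in Müller glia. In Y-positive Müller glia it was 2.11-fold lower with rolipram and 13.0-fold lower with BC11-38. Cones gave 30.2 CPM with rolipram, 19.1 CPM with BC11-38, 75.3 CPM in the bleached vehicle library and 38.7 CPM in the unbleached vehicle library. Cones were therefore 2.49-fold lower with rolipram (1.80 to 3.50) and 3.94-fold lower with BC11-38 (2.75 to 5.76) than in the bleached vehicle library. The rolipram value in cones was 1.99-fold lower in Y-positive cells. Amacrine cells showed the same order of bleached over unbleached (1.80-fold), and were 2.18-fold lower with BC11-38 (1.75 to 2.71). That value was 1.66-fold lower when each cell had equal weight.

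Unlike Gadd45b, Gadd45a was above the unbleached level after the bleach in Müller cluster 15 too. It stood at 33.9 CPM with rolipram, 12.4 CPM with BC11-38, 80.8 CPM in the bleached vehicle library and 22.2 CPM in the unbleached vehicle library. Within that cluster the bleached library was 3.64-fold above the unbleached one (2.35 to 5.62), rolipram 2.38-fold below the bleached one and BC11-38 6.52-fold below it. Cluster 12 gave 67.1 CPM with rolipram, 130 CPM in the bleached vehicle library and 75.7 CPM in the unbleached vehicle library.

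Gadd45g separated Müller glia from rods. In Müller glia it stood at 211 CPM with rolipram, 184 CPM with BC11-38, 207 CPM in the bleached vehicle library and 201 CPM in the unbleached vehicle library. Bleached Müller glia were at 1.03 times the unbleached level (0.971 to 1.09), rolipram at 1.02 times the bleached level and BC11-38 at 0.890 times it (0.823 to 0.961). Rods gave 15.1 CPM with rolipram, 6.88 CPM with BC11-38, 79.8 CPM in the bleached vehicle library and 31.9 CPM in the unbleached vehicle library. Gadd45g in rods was thus 2.50-fold higher after the bleach (2.04 to 3.08), and 1.71-fold higher in Y-positive cells. In rods it was 5.27-fold lower with rolipram (3.97 to 7.12) and 11.6-fold lower with BC11-38 (7.71 to 18.2) than in the bleached vehicle library. Bipolar cells kept within a narrow range, from 87.8 CPM in the unbleached vehicle library to 106 CPM in the bleached one. Endothelial cells were 2.11-fold lower with rolipram (1.59 to 2.82) than in the bleached vehicle library, at 67.1 CPM with rolipram and 141 CPM in the bleached vehicle library. Horizontal cells, too few for the comparisons (21 to 45 cells), held 2 Gadd45g UMIs with rolipram, 5 with BC11-38, 110 in the bleached vehicle library and 11 in the unbleached vehicle library.

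Some single Müller glia held more than 1 of these transcripts. With every cell thinned to 2000 UMIs, at least 1 of the 3 GADD45 genes was found in 25.9% of Müller glia with rolipram, 14.5% with BC11-38, 52.0% in the bleached vehicle library and 33.0% in the unbleached vehicle library. At least 2 were found in 3.82% with rolipram, 0.880% with BC11-38, 12.1% in the bleached vehicle library and 5.98% in the unbleached vehicle library. In bleached vehicle Müller glia Gadd45b was found in 31.7% of thinned cells and Cdkn1a in 4.69%, and 3.13% held both.

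Cdkn1a was highest in endothelial cells among the 6 classes compared, and differed in opposite directions between Müller glia and amacrine cells. Endothelial cells gave 240 CPM with rolipram, 492 CPM with BC11-38, 166 CPM in the bleached vehicle library and 315 CPM in the unbleached vehicle library. Their bleached level was 0.527 times the unbleached one (0.440 to 0.630), with rolipram 1.45-fold (1.20 to 1.74) and BC11-38 2.97-fold (2.52 to 3.51) above the bleached one. The lowest of the 4 endothelial levels was thus the bleached vehicle one. Microglia held Cdkn1a at 96.8 CPM with rolipram, 196 CPM in the bleached vehicle library and 69.4 CPM in the unbleached vehicle library. In Müller glia Cdkn1a stood at 10.7 CPM with rolipram, 6.29 CPM with BC11-38, 38.7 CPM in the bleached vehicle library and 18.2 CPM in the unbleached vehicle library. Bleached Müller glia were 2.13-fold above unbleached ones (1.77 to 2.56), or 1.70-fold in Y-positive cells. Relative to the bleached library Cdkn1a in Müller glia was 3.61-fold lower with rolipram (2.86 to 4.63) and 6.15-fold lower with BC11-38 (4.16 to 9.47). With equal weight per cell it was 3.94-fold lower with rolipram and 3.86-fold lower with BC11-38. Within Müller cluster 12 the bleached library was 1.64-fold above the unbleached one (1.36 to 1.99) and rolipram 1.57-fold below the bleached one. Cluster 15 held 2 to 25 Cdkn1a UMIs per library, at 3.59 to 6.32 CPM.

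Amacrine cells held Cdkn1a at 17.6 CPM with rolipram, 24.7 CPM with BC11-38, 3.82 CPM in the bleached vehicle library and 21 CPM in the unbleached vehicle library. These levels came from 113 UMIs with rolipram, 178 with BC11-38, 10 in the bleached vehicle library and 227 in the unbleached vehicle library. The bleached amacrine cells were thus 5.50-fold below the unbleached ones (2.94 to 11.6), with rolipram 4.61-fold (2.42 to 9.88) and BC11-38 6.46-fold (3.43 to 13.7) above the bleached ones. With equal weight per cell these values were 3.73-fold, 3.37-fold and 4.54-fold in that order. In amacrine cluster 23 (the most Cdkn1a UMIs of any amacrine cluster) the levels were 32.0 CPM with rolipram, 51.2 CPM with BC11-38, 10.1 CPM in the bleached vehicle library and 43.0 CPM in the unbleached vehicle library. That cluster had 247 rolipram, 239 BC11-38, 45 bleached vehicle and 299 unbleached vehicle cells. Amacrine cluster 19 gave 41 UMIs with rolipram, 45 with BC11-38, 1 in the bleached vehicle library and 28 in the unbleached vehicle library. The summed endothelial markers in amacrine cells were 43.1 CPM with rolipram, 41.8 CPM with BC11-38, 54.3 CPM in the bleached vehicle library and 46.1 CPM in the unbleached vehicle library. The part of endothelial RNA in the amacrine values was not tested. Among photoreceptors, Cdkn1a stood out in bleached vehicle cones. A Cdkn1a UMI was found in 0.0379% of rods with rolipram, 0.0872% with BC11-38, 0.280% in the bleached vehicle library and 0.168% in the unbleached vehicle library. Cones held 0 UMIs with rolipram, which allows up to 1.71 CPM, 2 with BC11-38, 44 in the bleached vehicle library (19 of 296 cells) and 1 in the unbleached vehicle library. That is 0.956 CPM with BC11-38, 25.3 CPM in bleached vehicle cones (18.4 to 34) and 0.524 CPM in unbleached vehicle cones, with too few UMIs for a counted ratio.

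**Figure D3:**
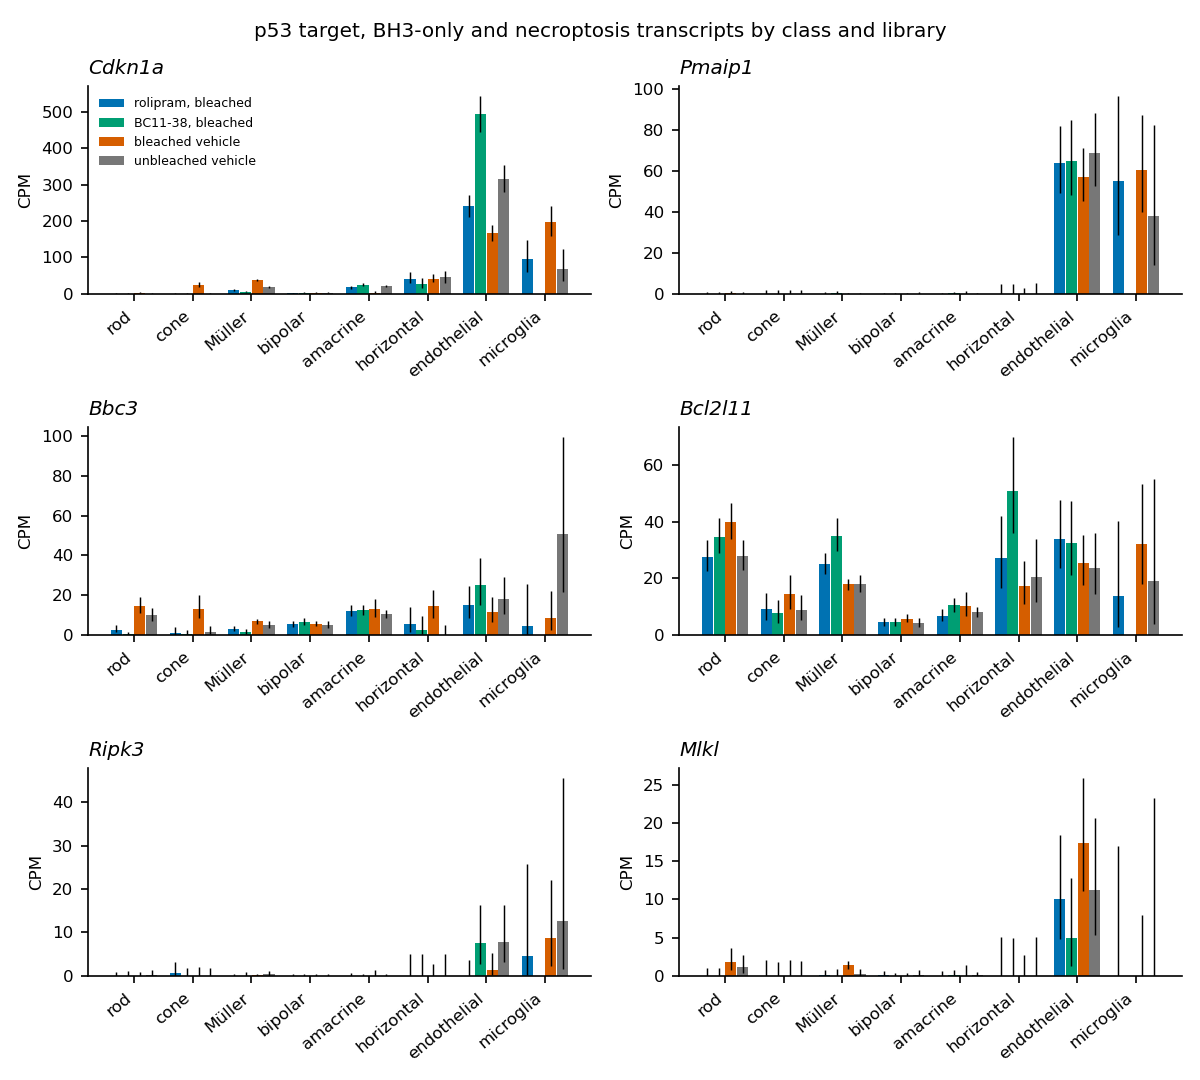
Levels (CPM, linear axes from 0, a separate scale for each gene) of Cdkn1a, Pmaip1, Bbc3, Bcl2l11, Ripk3 and Mlkl in 8 classes, 1 bar per library, with exact 95% Poisson intervals; BC11-38 had no microglia. Cdkn1a reached 492 CPM and Pmaip1 57.2 to 68.6 CPM in endothelial cells, whereas Pmaip1 was at most 0.242 CPM in Müller glia.

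Pmaip1 was found in endothelial cells and microglia and almost nowhere else. Endothelial cells gave 64.1 CPM with rolipram (49.3 to 81.8), 64.8 CPM with BC11-38 (48.4 to 85), 57.2 CPM in the bleached vehicle library (45.3 to 71.3) and 68.6 CPM in the unbleached vehicle library (52.5 to 88.1). These 4 intervals overlapped, and every ratio lay between 0.834 and 1.13. Microglia held 12 UMIs with rolipram, 28 in the bleached vehicle library and 6 in the unbleached vehicle library, and there were no microglia in the BC11-38 library. The summed microglial markers in endothelial cells were 26.0 CPM with rolipram, 3.74 CPM with BC11-38, 4.35 CPM in the bleached vehicle library and 13.5 CPM in the unbleached vehicle library. Their part in the Pmaip1 values was not tested. Cones held 0 Pmaip1 UMIs in all 4 libraries, which allows up to 1.43 to 1.72 CPM.

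Bbc3 was a low transcript (1035 UMIs in all) found in most classes, with the highest mean levels in microglia, on 13 UMIs, and endothelial cells. Amacrine cells gave 12.0 CPM with rolipram, 12.3 CPM with BC11-38, 13.0 CPM in the bleached vehicle library and 10.6 CPM in the unbleached vehicle library, with a ratio of bleached to unbleached of 1.23. In Müller glia it stood at 3.06 CPM with rolipram, 1.45 CPM with BC11-38, 6.79 CPM in the bleached vehicle library and 5.10 CPM in the unbleached vehicle library. The Müller ratio of bleached to unbleached was 1.33 (0.927 to 1.95), an interval that includes 1. Rolipram was 2.22-fold below the bleached Müller glia (1.41 to 3.66), or 1.96-fold when each cell had equal weight, and BC11-38 was 4.68-fold below them (2.10 to 13.0) on 6 UMIs. Rods held 10 Bbc3 UMIs with rolipram, 1 with BC11-38, 57 in the bleached vehicle library and 42 in the unbleached vehicle library. Of those rod UMIs, 5 of the rolipram, 44 of the bleached vehicle and 35 of the unbleached vehicle UMIs were in cluster 2, a shallow cluster with 188 rolipram, 1 BC11-38, 676 bleached vehicle and 496 unbleached vehicle cells. Cones held 2 Bbc3 UMIs with rolipram, 1 with BC11-38, 23 in the bleached vehicle library and 3 in the unbleached vehicle library, too few for a counted ratio.

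Bcl2l11 was the member that was higher, not lower, in drug-treated Müller glia. There it stood at 25 CPM with rolipram, 35.1 CPM with BC11-38, 17.8 CPM in the bleached vehicle library and 18.1 CPM in the unbleached vehicle library. Relative to the bleached Müller glia it was 1.40-fold higher with rolipram (1.17 to 1.68) and 1.97-fold higher with BC11-38 (1.61 to 2.39), both short of 2-fold. The bleached and unbleached Müller glia differed by a ratio of 0.988 (0.810 to 1.21). Rods gave 27.6 CPM with rolipram, 34.7 CPM with BC11-38, 40.02 CPM in the bleached vehicle library and 27.9 CPM in the unbleached vehicle library, with the bleached level 1.43-fold above the unbleached one (1.12 to 1.84). The bleached vehicle level was the highest in rods, but the ratio of BC11-38 to it, 0.867 (0.680 to 1.10), has an interval that includes 1. In Müller glia the bleached level was close to the unbleached one and below both drug levels.

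The necroptosis genes were at the limit of detection, with 30 Ripk3 and 95 Mlkl UMIs over all cells. Ripk3 gave 0 UMIs with rolipram, 6 with BC11-38, 2 in the bleached vehicle library and 7 in the unbleached vehicle library in endothelial cells. Rods held 1 Ripk3 UMI, in the unbleached vehicle library, and bipolar cells held 0, which allows 0.264 to 0.398 CPM. Mlkl in endothelial cells was at 10.0 CPM with rolipram (4.80 to 18.4), 4.98 CPM with BC11-38 (1.36 to 12.8), 17.4 CPM in the bleached vehicle library (11.1 to 25.9) and 11.2 CPM in the unbleached vehicle library (5.39 to 20.7). Each pair of those 4 intervals overlapped. Müller glia held 1 Mlkl UMI with rolipram, 0 with BC11-38, 28 in the bleached vehicle library and 2 in the unbleached vehicle library. That placed the bleached Müller glia at 1.37 CPM (0.909 to 1.98), against 0.262 CPM in the unbleached ones (0.0317 to 0.946). Thinned to 2000 UMIs, 0.223% of bleached and 0.181% of unbleached Müller glia held an Mlkl UMI. Rods held 0 Mlkl UMIs with rolipram, 0 with BC11-38, 7 in the bleached vehicle library and 5 in the unbleached vehicle library. No ratio of Ripk3 or Mlkl met the minimum of 100 UMIs over both libraries that a ratio needed to be counted.

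**Figure D4:**
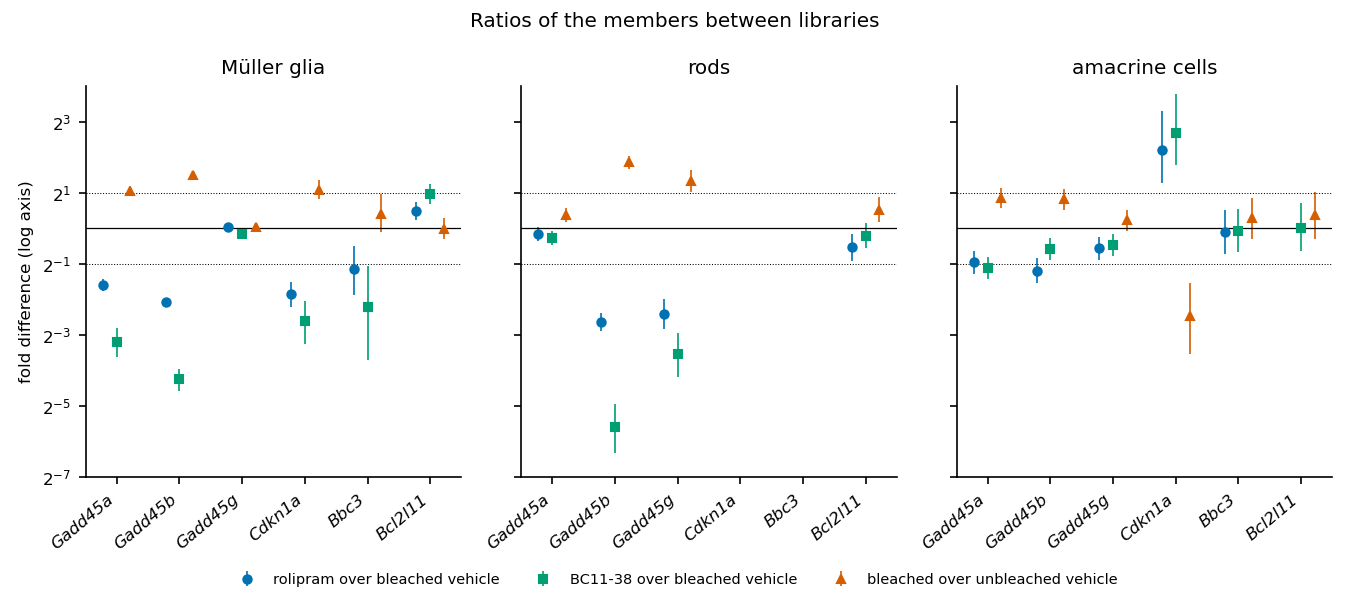
Fold differences (log axis, dotted lines at 2-fold) of the members in Müller glia, rods and amacrine cells for the 3 comparisons named in the legend, with exact 95% intervals for counting error; a ratio with fewer than 100 UMIs is not drawn. Gadd45b with BC11-38 lies 48.1-fold below the bleached vehicle library in rods, and amacrine Cdkn1a lies on the opposite side from Müller Cdkn1a in each comparison.

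Counted over members, the comparison of bleached with unbleached vehicle put 3 of 6 members at least 2-fold higher in Müller glia (Gadd45a, Gadd45b and Cdkn1a) and 0 lower. Of all Müller genes counted, 2.43% were at least 2-fold higher. The members, and the lists further on, were chosen with earlier results of these data known. The shares of all genes set beside them are therefore a description, not a test of enrichment. Rods had 2 of 4 members higher (Gadd45b and Gadd45g) against 1.42% of all genes, and cones 1 of 2 (Gadd45b) against 1.4%. Amacrine cells had 1 of 6 lower (Cdkn1a) against 1.15% of all genes. Bipolar cells had 0 of 4 past 2-fold either way against 1.37% of all genes, and endothelial cells 0 of 4 against 1.31%. The median log2 ratio was 0.73 over the 6 Müller members and -0.0026 over all Müller genes, and 0.92 over the 4 rod members and 0.09 over all rod genes.

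With rolipram, set against the same bleached vehicle library, 4 of 6 members were at least 2-fold lower in Müller glia (Gadd45a, Gadd45b, Cdkn1a and Bbc3) against 5.91% of all genes. Lower members numbered 2 of 4 in rods (3% of all genes), 2 of 2 in cones (2.74%), 1 of 5 in bipolar cells (1.29%), 1 of 5 in amacrine cells (0.57%) and 1 of 4 in endothelial cells (1.2%). Amacrine Cdkn1a was the 1 member higher, against 0.721% of all amacrine genes. The median log2 ratio of the members was -1.37 in Müller glia and -1.47 in rods, against 0.09 and -0.10 over all genes of those classes.

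With BC11-38 the same 4 members were at least 2-fold lower in Müller glia, against 9.4% of all genes. Lower members numbered 2 of 4 in rods (4.71% of all genes), 2 of 2 in cones (3.25%) and 1 of 6 in amacrine cells (0.821%). Bipolar cells had 0 of 5 members past 2-fold either way, against 2.67% of all genes. Cdkn1a was higher in amacrine cells (0.65% of all genes) and in endothelial cells (2.84%). The median log2 ratio of the members was -2.42 in Müller glia and -1.91 in rods, against 0.08 and -0.15 over all genes. Each of the 3 comparisons uses the bleached vehicle library, so a high value there enters all of them. A member was counted from 100 UMIs over both libraries, so a high bleached vehicle value can also decide whether it is counted. Cone Gadd45b had 22 UMIs with rolipram, 26 with BC11-38 and 176 in the bleached vehicle library. Cone Gadd45a had 53, 40 and 131 UMIs and Müller Bbc3 22, 6 and 139, in that order. The part of this minimum in the counts of lower members was not tested.

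The 2 inhibitors were given at the same dose in mg/kg and can be compared without the bleached vehicle library. In Müller glia Gadd45b was 4.54-fold higher with rolipram than with BC11-38 (3.65 to 5.71) and Gadd45a 3.05-fold higher (2.28 to 4.15), 2 of 5 members against 1.49% of all genes. With equal weight per cell Gadd45b was 3.32-fold and Gadd45a 3.15-fold higher. In Müller cluster 15 alone Gadd45b was 1.87-fold higher, short of 2-fold, and Gadd45a 2.74-fold higher. Cluster 12 held rolipram cells but no BC11-38 cell. The part of the different clusters in these Müller ratios was not tested. Cdkn1a in Müller glia was 1.70-fold higher with rolipram (1.08 to 2.77) and Gadd45g 1.14-fold higher (1.05 to 1.25), while Bcl2l11 was at 0.714 times the BC11-38 level (0.570 to 0.894). Rods had 1 of 3 members higher with rolipram, against 0.726% of all genes, which was Gadd45b at 7.76-fold (4.81 to 13.3). In endothelial cells Cdkn1a was 2.05-fold lower with rolipram (1.74 to 2.42), 1 of 4 members against 1.27% of all genes. That ratio was 1.92-fold lower with the cells of the highest doublet scores left out and 1.69-fold lower with equal weight per cell. Bipolar and amacrine cells had no member past 2-fold in either direction, against 0.441% and 0.332% of their genes. Gadd45b was lower with rolipram there, at 0.738 times the BC11-38 level in bipolar cells (0.626 to 0.869) and 0.661 times it in amacrine cells (0.536 to 0.814). In cones 0 members met the minimum of UMIs, and 0.297% of all cone genes were past 2-fold.

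The other genes of the p53 pathway were followed from a list of 31. Its median log2 ratio of bleached to unbleached Müller glia was 0.21 (all genes -0.0026), with 3 of 26 counted genes at least 2-fold higher and 1 lower, against 2.43% and 1.73% of all Müller genes. The p53-induced kinase gene Plk3 was at 0.834 CPM with rolipram, 0.967 CPM with BC11-38, 8.55 CPM in the bleached vehicle library and 1.57 CPM in the unbleached vehicle library, 5.45-fold higher after the bleach (3.04 to 10.7). Its level was thus high in 1 library. The death receptor gene Tnfrsf10b (19.6 CPM bleached, 8.64 CPM unbleached) and the antioxidant gene Sesn2 (14 CPM bleached, 6.28 CPM unbleached) were the other 2 higher genes. All 3 were lower in both drug libraries than in the bleached one. Ddit4, an inhibitor of mTOR signalling, was at 132 CPM with rolipram, 314 CPM with BC11-38, 28.5 CPM in the bleached vehicle library and 90.4 CPM in the unbleached vehicle library, and so 3.17-fold lower after the bleach. With rolipram 7 of 26 list genes were at least 2-fold lower than in bleached Müller glia and 1 higher (5.91% and 8.46% of all genes), and with BC11-38 10 of 26 were lower and 3 higher (9.4% and 10.7%). The list's median log2 ratios to the bleached library were -0.06 with rolipram and 0.01 with BC11-38, so the list as a whole was not shifted as its lower genes were. Gdf15, a secreted stress cytokine, was at 21.4 CPM with rolipram, 2.66 CPM with BC11-38, 76.2 CPM in the bleached vehicle library and 42.1 CPM in the unbleached vehicle library. Phlda3, a p53 target that restrains AKT, was at 15 CPM with rolipram, 12.8 CPM with BC11-38, 58.7 CPM in the bleached vehicle library and 31.9 CPM in the unbleached vehicle library. Trp53 itself was at 29.8 CPM with rolipram, 17.9 CPM with BC11-38, 62.5 CPM in the bleached vehicle library and 40.2 CPM in the unbleached vehicle library. Mdm2, a p53 target that degrades p53 (named, like Map3k4 further on, after its values were seen), was within a narrower range, at 32.0 CPM with rolipram, 41.6 CPM with BC11-38, 39.3 CPM in the bleached vehicle library and 31.5 CPM in the unbleached vehicle library. In rods 1 of 19 genes was higher after the bleach (Plk2, 2.65-fold), and 1 of 18 was lower with each drug, with a median log2 ratio of 0.11 after the bleach (all rod genes 0.09).

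**Figure D5:**
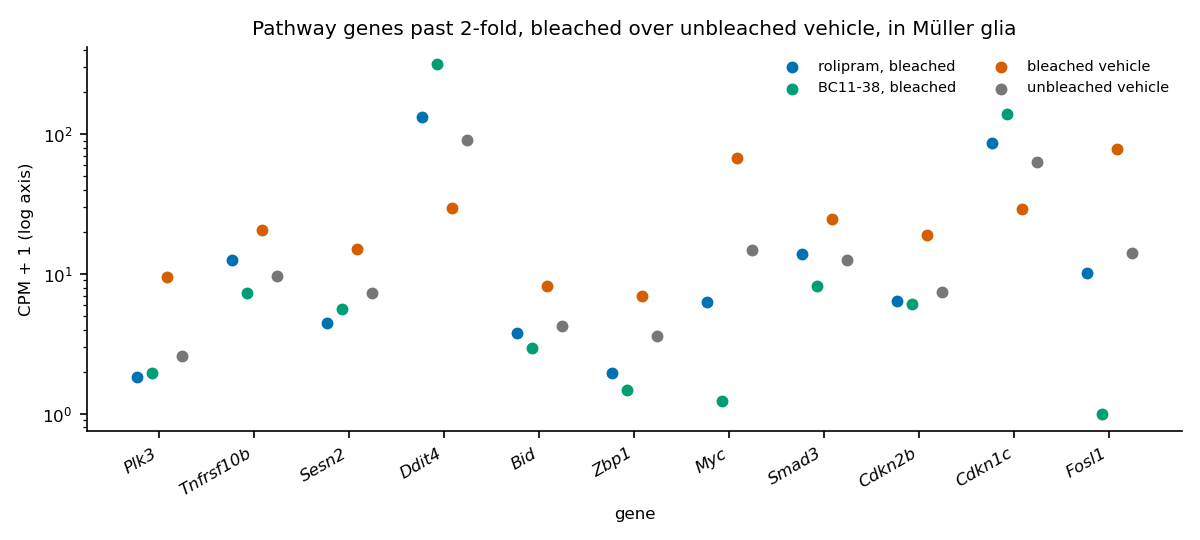
Levels in Müller glia (CPM + 1, log axis), 1 point per library, of the list genes at least 2-fold higher or lower in the bleached than in the unbleached vehicle library, from which they were chosen. Ddit4 and Cdkn1c are lowest in the bleached vehicle library, at 28.5 and 28.3 CPM, and the bleached vehicle point of Fosl1 is at 77.3 CPM.

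Apoptosis and necroptosis partners were set beside the 2.43% of all Müller genes and 1.42% of all rod genes that were at least 2-fold higher after the bleach. Of the BCL2 family 1 of 10 genes was past 2-fold in bleached over unbleached Müller glia, the BH3-only gene Bid, at 7.19 CPM bleached and 3.27 CPM unbleached (2.20-fold), and the median log2 ratio of the family was 0.21. Bax, the pore-forming effector, was at 85.2 CPM with rolipram, 57.3 CPM with BC11-38, 163 CPM in the bleached vehicle library and 107 CPM in the unbleached vehicle library. Of 12 counted caspase pathway genes 0 were past 2-fold after the bleach (median log2 ratio -0.01). With each drug 2 of 11 were at least 2-fold lower than in bleached Müller glia, against 5.91% of all genes with rolipram and 9.4% with BC11-38. The median log2 ratio of the caspase list was nevertheless above 0, at 0.19 with rolipram and 0.25 with BC11-38 (all genes 0.09 and 0.08). Casp8, the initiator caspase that restrains necroptosis, stood at 5.70 CPM with rolipram, 5.32 CPM with BC11-38, 17.6 CPM in the bleached vehicle library and 9.55 CPM in the unbleached vehicle library. Of the necroptosis partners 1 of 19 was higher in bleached Müller glia, the nucleic acid sensor Zbp1 (5.91 CPM bleached, 2.62 CPM unbleached), and 1 of 12 in rods, with median log2 ratios of 0.20 in Müller glia and 0.15 in rods. The rod gene was Ripk1, the kinase that recruits Ripk3, at 9.55 CPM with rolipram, 7.98 CPM with BC11-38, 46.4 CPM in the bleached vehicle library and 17.7 CPM in the unbleached vehicle library. Ripk1 in rods was 2.62-fold higher after the bleach (1.99 to 3.47), and 4.86-fold lower with rolipram and 5.82-fold lower with BC11-38 than in the bleached library. Ripk3 and Mlkl themselves were near 0 in the same rods.

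Regulators and signalling partners of the GADD45 genes were followed too. Of 12 counted kinase partners 0 were past 2-fold in bleached over unbleached Müller glia (median log2 ratio -0.12), and 0 of 10 in rods. Map3k4, the kinase that GADD45 proteins bind, was at 47.1 CPM with rolipram, 39.9 CPM with BC11-38, 41.4 CPM in the bleached vehicle library and 39.0 CPM in the unbleached vehicle library in Müller glia. Of 18 counted regulators 2 were higher in bleached Müller glia (median log2 ratio 0.20, 2.43% of all genes higher), Myc (66.8 CPM bleached, 13.7 CPM unbleached) and Smad3 (23.8 CPM bleached, 11.5 CPM unbleached). Both are transcription factors, and Myc stood at 5.28 CPM with rolipram and 0.242 CPM with BC11-38. In rods 1 of 12 regulators was higher after the bleach (Foxo1, 2.05-fold, 1.42% of all rod genes higher), and 5 were at least 2-fold lower with rolipram and 6 with BC11-38 than in the bleached library (median log2 ratio -0.83 with rolipram, with 3% of all rod genes lower, and -1.01 with BC11-38, with 4.71% lower). Among those was Cebpd, a stress-induced transcription factor, at 67.9 CPM with rolipram, 5.23 CPM with BC11-38, 410 CPM in the bleached vehicle library and 236 CPM in the unbleached vehicle library. Of 5 counted other cyclin-dependent kinase inhibitors, bleached Müller glia had Cdkn2b 2.79-fold above the unbleached ones and Cdkn1c at 0.453 times the unbleached level.

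Immediate-early genes, which cell dissociation is known to induce in many tissues, were in the same order as Gadd45b in rods and not in Müller glia. Their summed level in rods was 3625 CPM with rolipram, 2964 CPM with BC11-38, 6416 CPM in the bleached vehicle library and 4185 CPM in the unbleached vehicle library. In Müller glia the sum was 33059 CPM with rolipram, 27830 CPM with BC11-38, 23012 CPM in the bleached vehicle library and 25763 CPM in the unbleached vehicle library, lowest where Gadd45b was highest. Of 16 counted immediate-early genes in rods 3 were higher after the bleach (1.42% of all rod genes), which were Socs3 (131 CPM bleached, 56.7 CPM unbleached), Zfp36 (50.03 CPM bleached, 13.2 CPM unbleached) and Nr4a1 (68.8 CPM bleached, 32.9 CPM unbleached). In the same rods 7 were lower with rolipram (3% of all rod genes) and 9 with BC11-38 (4.71%) than in the bleached library. The part of dissociation in the rod values was not tested.

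Over the 24 combinations of class and library with at least 50 cells, the genes whose levels were most like each member's were ranked by Pearson's r of log2(CPM + 1) among 12681 genes. These units share libraries and differ in depth, and r is given as a description. For Gadd45a they were Dcaf6 (r = 0.848), Wdr89 (0.840) and Vps33b (0.834). For Gadd45b they were Nme2 (0.799), S100a6 (0.795) and Nt5c (0.791), the lowest likeness among the 6 members ranked. Gadd45g was most like Mboat2 (0.918), Gyg (0.909) and Pim1 (0.904). Cdkn1a was most like Plk3 (0.955), which is itself on the p53 list, then Slc7a5 (0.939) and Midn (0.934). Bbc3 was nearest to Prkx (0.830), Map7d1 (0.827) and Zfp948 (0.819), and Bcl2l11 to Tor1b (0.936), Dennd6a (0.923) and Dnajc1 (0.913). Pmaip1, Ripk3 and Mlkl had fewer than 500 UMIs and were not ranked.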

How the data were processed

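Single-cell RNA was measured in 4 libraries, 1 per group. The deposited matrix holds, per the file headers, natural log values, ln(1 + x) with x the UMIs scaled to 10000 per cell, for 26543 cells and 20094 genes. The submitters' processing notes name Cell Ranger 6.0.1, Seurat 3.2.2 and mm10 without their roles. How strand, introns and shared reads were handled is not given in the sources used here. For the tests, counts had been assumed. The authors' log values were turned back into whole UMIs (100% within 0.001 of a whole number), and 0 columns were left unused.

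Cells were clustered with scanpy 1.11.5 (2000 variable genes without the 9 members, 30 components, 15 neighbours, Leiden resolution 1) and named from marker lists, and cells called doublets by Scrublet were left out. The cells of cluster 11 stayed unnamed and were not used. For each library the UMIs of a class were added up and divided by their total. A ratio, with its exact interval, was counted where both libraries together had 100 or more UMIs and each had 50 or more cells, and "past 2-fold" was the only call. Shares of cells have Clopper-Pearson intervals. A count of 0 allows 3 counts. Intervals and floors cover counting error only. With 1 library per group there was no test. Named genes were the 9 members, the 3 genes most like each, and up to 4 genes past 2-fold per list, class and comparison. The members and lists were chosen with earlier results of these data known. Alternatives were TMM scaling, other minimums and thresholds, other clusterings and cell filters, equal weight per cell, thinning to 2000 or 1000 UMIs, and Y-positive cells without Xist. The sums were tested on simulated data.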

Additional observations from a re-analysis of the deposited data

Results flagged for a closer look

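Cdkn1a differed in opposite directions in different classes, and the difference between classes was not tested. The log2 ratio of bleached to unbleached vehicle was 1.09 in Müller glia and -2.46 in amacrine cells. That of rolipram to bleached vehicle was -1.85 in Müller glia and 2.21 in amacrine cells. That of BC11-38 to bleached vehicle was -2.62 in Müller glia, 2.69 in amacrine cells and 1.57 in endothelial cells. The amacrine values rest on 10 UMIs of the bleached vehicle library, which all 3 comparisons share.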

How the results depend on the processing

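No paired analysis was possible because each group had 1 library. Of 34 ratios past 2-fold (101 counted), all 34 stayed past it under TMM scaling, coarser clusters and a second naming rule. A minimum of 30 in place of 100 UMIs could not remove any of them. With no cell left out all 34 stayed too, but that setting returned only the 0 to 18 called doublets per library. With the highest doublet scores left out 33 stayed, with equal weight per cell 31, and of 31 with a value in Y-positive cells 26. The counts over all 6 classes were 7 of 26 for bleached over unbleached vehicle, and 19 with no minimum and 13 at 1.5-fold. Rolipram over bleached vehicle gave 12, and 25 with no minimum, and BC11-38 over bleached vehicle 11, and 25 with no minimum. Rolipram over BC11-38 gave 4, and 16 with no minimum, 8 at 1.5-fold and 2 in Y-positive cells. Both were larger there (Müller Gadd45a 6.17-fold, Gadd45b 6.15-fold), rod Gadd45b (11.6-fold) had too few UMIs to be counted, and endothelial cells were too few. In Müller glia alone bleached over unbleached gave 3, and 6 with no minimum and 1 in Y-positive cells, and rolipram over BC11-38 gave 2, and 4 with no minimum. In Müller cluster 15 alone, an alternative chosen after seeing the data, 5 of 13 ratios stayed past 2-fold. Log2 ratios there turned to -0.14 for Gadd45b and -0.14 for Cdkn1a (bleached over unbleached), 0.54 for Gadd45b and 0.32 for Cdkn1a (rolipram over bleached) and 0.82 for Cdkn1a (BC11-38 over bleached), and the cause was not tested. In Müller cluster 12 alone, also chosen after seeing the data, 1 of 7 stayed (Gadd45b, bleached over unbleached). All 7 rod ratios stayed without the shallow rod clusters 2 and 3. Single rod clusters were not among these alternatives, and Gadd45b differed less between libraries in rod cluster 0 than over all rods. TMM scaling subtracts from every log2 ratio to bleached vehicle in Müller glia 0.22 for rolipram and 0.24 for BC11-38. In rods it subtracts 0.13 for bleached over unbleached vehicle, -0.12 for rolipram and -0.17 for BC11-38, and in cones 0.12 for bleached over unbleached vehicle and -0.10 for BC11-38.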
